A study of Mus musculus with 2 samples.

Results

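A set of 9 genes of ERK feedback and of the AP-1 and EGR1 transcription factors was followed in 4T1 cells, a murine breast cancer (BC) line, after treatment with astragalin (AS), a plant flavonoid. The members were taken by name, and 9 of the 10 names were matched among 14197 genes. These were the MAP kinase phosphatase genes Dusp4, Dusp5 and Dusp6, the Sprouty genes Spry2 and Spry4, the AP-1 genes Fosl1, Jun and Junb, and Egr1. Fos was the name not matched, so its level was not analysed here. The treated library came from wild-type 4T1 cells given 20 μM AS for 24 h, and the control library from wild-type 4T1 cells given the vehicle. The study's methods describe a luciferase-labelled 4T1 line, and whether the sequenced cells carried the label is not given in the sources used here. With 1 library per condition there was no replicate check and no test. The intervals given below cover counting error only, and any effect of AS cannot be told apart from other differences between the cultures.

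ERK is the last kinase of the RAS-RAF-MEK-ERK cascade, which carries growth factor signals to the nucleus. Active ERK switches on genes that in turn restrain it. DUSP phosphatases remove the activating phosphates from ERK, and Sprouty proteins dampen the signal between the receptor and RAF. ERK also raises immediate-early genes such as Egr1 and the FOS family, whose proteins pair with JUN proteins to form AP-1, a transcription factor tied to growth and invasion in carcinoma cells.

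Levels are RPKM, a read count corrected for exon length and library size. The library sizes behind them were 44909683 reads for AS and 50820728 for the vehicle. Whole reads were recovered for all 9 genes, from 64 to 9424 per gene and library. Differences are log2 fold changes of AS over vehicle after adding 0.1 RPKM to each level, which pulls genes of low level toward 0. The median over all genes was 0.07. Both libraries held reads of a list of epithelial markers chosen for the 4T1 line. All 8 were measured, and their summed RPKM was 1735 with AS against 2199 with the vehicle. Of these, 6 were lower with AS and 2 higher. Krt14 and Krt19 were lower beyond 1.5-fold (log2 fold changes of -0.96 and -0.73), as was Krt8 with TMM scaling, whereas Cldn4 (0.42) and Cdh1 (0.17) were higher and Cldn3 (-0.01) and Epcam (-0.09) were nearly level. Their part in the results below was not tested. Of the leukocyte, fibroblast and endothelial markers, 2 of 5, 3 of 5 and 0 of 4 were measured, and each of these lists summed to at most 5.49 RPKM in either library.

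None of the 9 genes was beyond a log2 fold change of 1, a threshold that 0.972% of all genes passed, 0.662% upward and 0.31% downward. Beyond 1.5-fold, which 5.57% of all genes passed, 3.56% upward and 2.01% downward, Dusp4 was the only member, and it was higher with AS. That split of all genes, 505 higher and 286 lower, was 390 and 392 with trimmed mean of M-values (TMM) scaling. The members themselves were split in direction. Dusp4, Dusp6, Spry2, Spry4 and Fosl1 were higher with AS, with log2 fold changes from 0.11 to 0.63, and Dusp5, Jun, Junb and Egr1 were lower, from -0.32 to -0.17. Their median was 0.11. Over all genes, 60.9% had a value above 0, and 50.1% with TMM scaling. The middle 50% of all genes lay between -0.10 and 0.23, and 3 of the 9 members lay above this range and 4 below it.

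**Figure D1:**
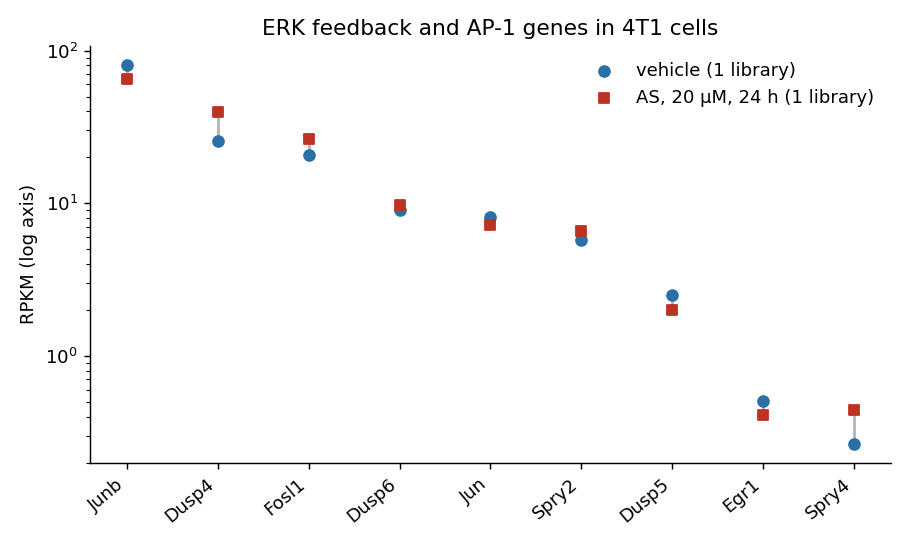
RPKM (log axis) of each gene in the vehicle library (circles) and the AS library (squares), with 1 library per condition and the genes ordered by their level in the vehicle. The levels run from 80.6 RPKM for Junb to 0.265 for Spry4 in the vehicle, and the gaps between the libraries are small beside this range.

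The order of the levels was nearly the same in both libraries. Junb was the highest, followed by Dusp4, Fosl1, Dusp6, Jun, Spry2 and Dusp5. At the low end Egr1 lay above Spry4 in the vehicle and below it with AS. The 95% Poisson intervals of neighbours in this order overlapped in 2 places, both in the AS library, between Jun and Spry2 and between Spry4 and Egr1. Junb stood at percentile 94.3 of all genes with AS and 95.5 with the vehicle, while Egr1 stood at 4.40 and 6.75.

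The phosphatases went in different directions. Dusp4 encodes a nuclear phosphatase of ERK and other MAP kinases. It had 39.3 RPKM with AS (4842 reads) against 25.5 RPKM with the vehicle (3547 reads). This gave a log2 fold change of 0.63, and the 95% Clopper-Pearson interval of the reads ran from 0.56 to 0.69. By the size of this value it was number 652 of all genes. By its level it moved from rank 2112 among all genes in the vehicle to rank 1373 with AS. Its place beyond 1.5-fold depended on the scaling. With TMM scaling its log2 fold change was 0.56, and 0 members were then beyond 1.5-fold.

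Dusp6, which encodes a cytoplasmic phosphatase that acts mainly on ERK, was nearly level. It had 9.78 RPKM with AS (1375 reads) against 9.07 RPKM with the vehicle (1444 reads). Its log2 fold change of 0.11 was close to the median of all genes, and 67.1% of all genes had a value at least as large in size.

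Dusp5 encodes a nuclear phosphatase specific for ERK and can be induced through serum response factor (SRF). It had the lowest log2 fold change of the members. Its level was 1.99 RPKM with AS (221 reads) against 2.51 RPKM with the vehicle (316 reads). The log2 fold change was -0.32, and the interval of the reads, from -0.59 to -0.08, was wide at this depth.

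The promoter is printed for the 2 members in which a searched motif was found, to show where the motifs lie. RefSeq promoters (GRCm38.p6) were matched for Dusp5, Dusp6, Spry2, Fos, Jun and Junb, and 7 motifs were searched on both strands in the 250 bases before the start of each. Dusp5 held 2 CArG boxes, the SRF motif, side by side from 82 to 63 bases before its start (chr19:53529025-53529144, plus strand). Of all 32851 promoters, 1.47% held a CArG box in this window. Jun held TGACATCA, a motif bound by JUN and ATF proteins, from 45 to 38 bases before its start (chr4:95052223-95052342, minus strand), as did 2.93% of all promoters on either strand. The last 120 bases before each start are shown 5′ to 3′ with the matches in capitals.
Dusp5: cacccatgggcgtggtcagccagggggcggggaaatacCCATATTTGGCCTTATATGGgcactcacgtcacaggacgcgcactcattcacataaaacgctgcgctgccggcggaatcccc
Jun: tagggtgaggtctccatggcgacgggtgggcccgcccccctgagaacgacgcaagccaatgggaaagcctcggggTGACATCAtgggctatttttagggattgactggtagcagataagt

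In the same windows 0 of the 6 promoters held the AP-1 motif TGANTCA (6.75% of all promoters), the CRE TGACGTCA (1.55%), the ETS motif CCGGAAG (6.91%), the EGR motif GCGNGGGCG (4.7%) or TGATGCAA, the motif of ATF4 with C/EBP proteins (0.791%). None of the matches overlapped another. A match is a run of letters and not a measured site.

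Both Sprouty genes were higher with AS. Spry2 had 6.57 RPKM with AS (616 reads) against 5.70 RPKM with the vehicle (605 reads), and a log2 fold change of 0.20. Its interval ran from 0.04 to 0.37, but from -0.03 to 0.30 with TMM scaling, where it included 0. Spry4 was near the bottom of the table, at 0.440 RPKM with AS (94 reads) against 0.265 RPKM with the vehicle (64 reads). Its log2 fold change was 0.57, just inside 1.5-fold. With nothing added it was 0.73, beyond 1.5-fold, with an interval from 0.26 to 1.21. Spry4 was the member whose value moved most with the amount added. In RPKM, Spry2 was 14.9 times as high as Spry4 with AS and 21.5 times with the vehicle.

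**Figure D2:**
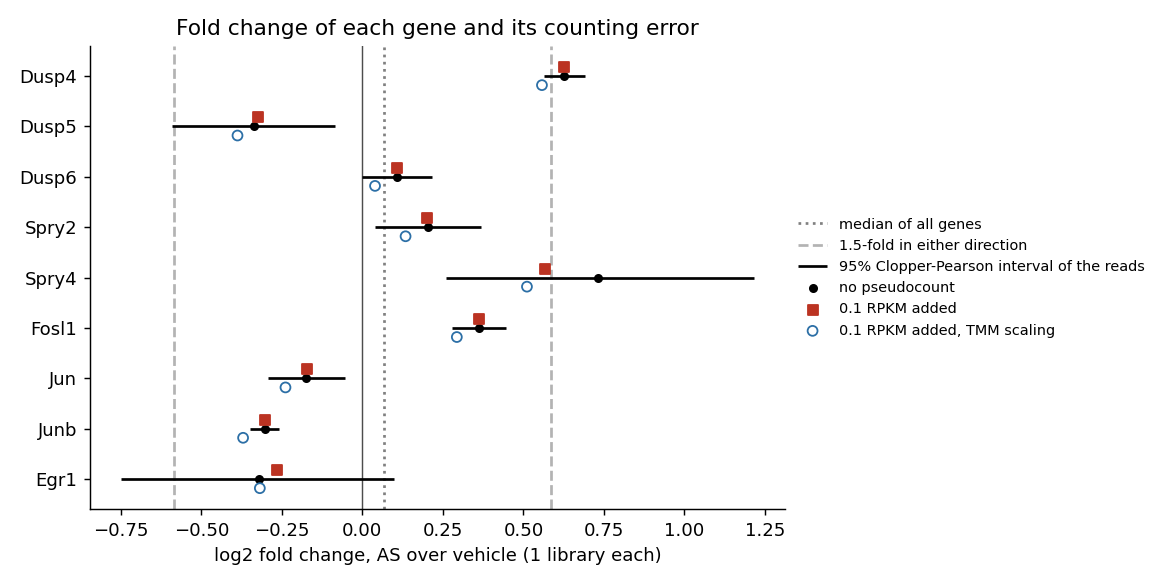
Log2 fold change of AS over vehicle for each gene, with 0.1 RPKM added (squares), with nothing added (filled circles, with the 95% Clopper-Pearson interval of the reads as a line) and with TMM scaling (open circles). Dashed lines mark 1.5-fold in either direction and the dotted line the median of all genes at 0.07, and the values beyond a dashed line are those of Dusp4 without TMM scaling and of Spry4 with nothing added.

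Of the AP-1 genes, Fosl1 was higher and both JUN genes were lower with AS. Fosl1 encodes FRA-1, a FOS family protein that is abundant in invasive BC cells. It had 26.4 RPKM with AS (2411 reads) against 20.5 RPKM with the vehicle (2122 reads). Its log2 fold change was 0.36, with an interval from 0.28 to 0.45, and 11.8% of all genes were at least as far above 0. In GENCODE M21, 1163 of its 2033 exon bases also lie in Ccdc85b on the opposite strand, whose level was 23.2 RPKM with AS and 24.3 RPKM with the vehicle. The library kit was stranded, but the strand setting of the counting is not stated, so reads of the shared bases are uncertain.

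Junb, which encodes a JUN protein that can oppose c-JUN, had the most reads of the members. It had 65.3 RPKM with AS (6751 reads) against 80.6 RPKM with the vehicle (9424 reads). The log2 fold change of -0.30 had a narrow interval, from -0.35 to -0.26. With TMM scaling the value was -0.37, outside this interval, which covers counting error only. Jun encodes c-JUN, a protein that can raise its own gene. It had 7.22 RPKM with AS (1034 reads) against 8.14 RPKM with the vehicle (1320 reads), and its log2 fold change was -0.17, with an interval from -0.29 to -0.06. Opposite-strand genes share 173 of the 2301 exon bases of Junb, 232 of the 3189 of Jun and 547 of the 2473 of Dusp5, with the same uncertainty.

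Egr1 encodes a zinc finger factor that rises early after ERK activation. It was low in both libraries, at 0.407 RPKM with AS (82 reads) and 0.509 RPKM with the vehicle (116 reads). The log2 fold change was -0.26. Its interval, from -0.75 to 0.10, included 0, so a difference was not detectable at this depth. The interval of Dusp6, from 0.00015 to 0.22, had its lower end almost at 0. With TMM, median-of-ratios or upper quartile scaling the intervals of 3 of the 9 genes, Dusp6, Spry2 and Egr1, included 0.

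**Figure D3:**
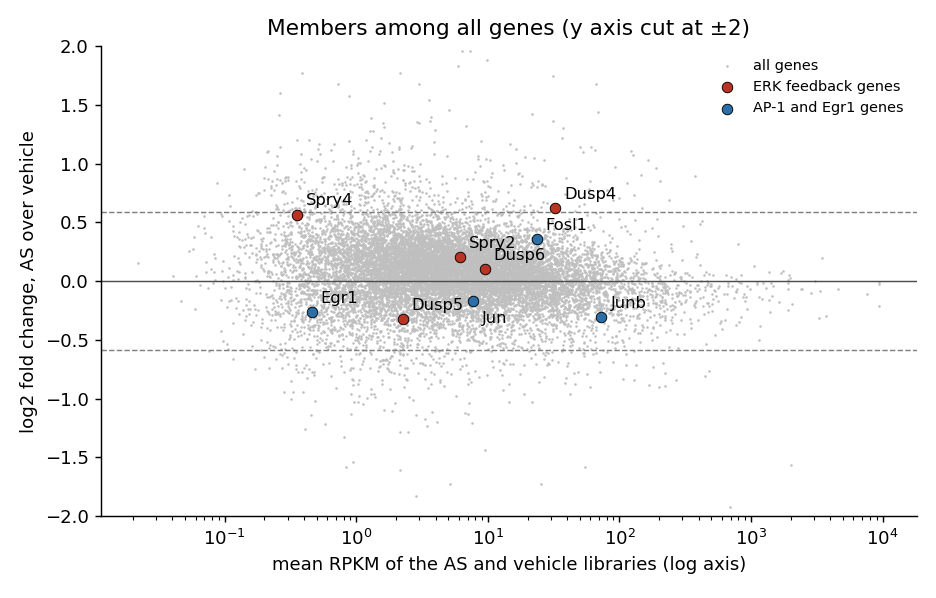
Log2 fold change of AS over vehicle (0.1 RPKM added) against the mean RPKM of both libraries (log axis) for all genes (grey), with the ERK feedback genes in red and the AP-1 genes and Egr1 in blue. Dashed lines mark 1.5-fold in either direction, 13 genes lie outside the plotted range of ±2, and the members lie within the cloud of all genes, with Dusp4 just above the upper dashed line.

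Since RPKM is per length, the make-up of each family could be set out within a library. Whole reads were not recovered for Jund, and Fosl1 shares exon bases with Ccdc85b. Jun, Junb and Dusp5 also share exon bases with genes on the opposite strand. The sums, shares and ratios that include any of these genes are therefore uncertain. The measured FOS family genes, Fosl1, Fosl2 and Fosb, summed to 33.0 RPKM with AS against 25.6 RPKM with the vehicle, a ratio of 1.29. The JUN family, Jun, Junb and Jund, summed to 167 and 207 RPKM, a ratio of 0.809. Within each family the shares were almost the same in both libraries. Fosl1 made up 80.1% of the FOS family sum with AS and 80.3% with the vehicle. Junb made up 39.1% and 39.02% of the JUN family sum, and Jund 56.6% and 57.04%. Fosl2, which encodes FRA-2, had a log2 fold change of 0.35, near that of Fosl1, and Jund had -0.32, near that of Junb. Fosb was low, at 0.428 and 0.258 RPKM, with a log2 fold change of 0.56 that was 0.73 with nothing added and 0.18 with 1 RPKM added. The RPKM ratio of Junb to Fosl1 was 2.47 with AS and 3.92 with the vehicle.

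The make-up of the phosphatases that act on ERK was less even. Dusp4, Dusp5, Dusp6, Dusp7 and Dusp9 summed to 57.4 RPKM with AS against 44.3 RPKM with the vehicle. Dusp4 made up 68.6% of this sum with AS and 57.5% with the vehicle. The shares of the other genes of this sum were lower with AS, among them Dusp6 at 17.04% against 20.5% and Dusp5 at 3.47% against 5.68%. The RPKM ratio of Dusp4 to Dusp5 was 19.8 with AS and 10.1 with the vehicle, and it carries the uncertainty of the shared bases of Dusp5. Of the Sprouty sum, Spry2 made up 62.6% and 64.2% and Spry1 33.2% and 32.8%, and the log2 fold change of Spry1 was 0.25.

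**Figure D4:**
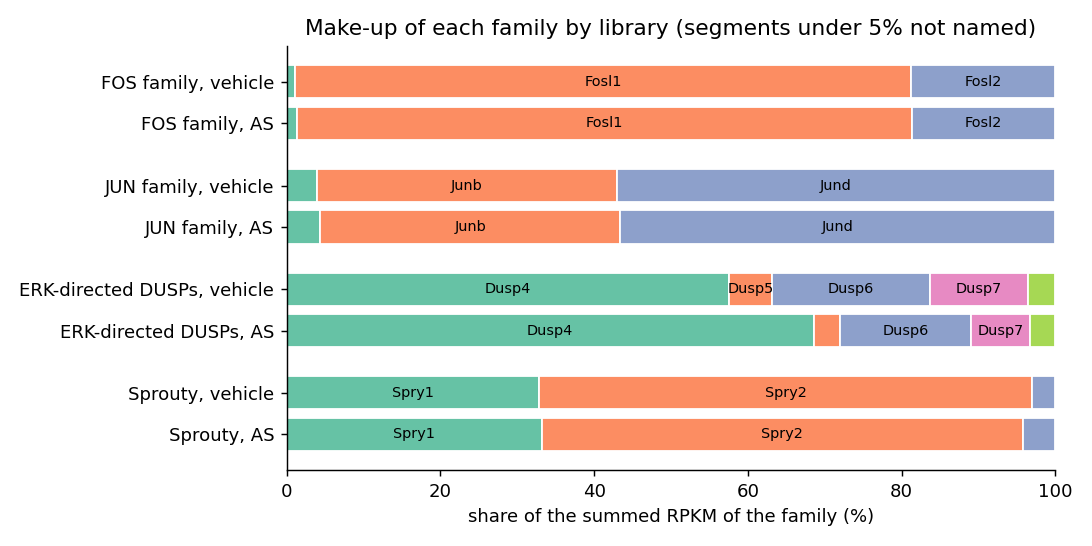
Share of each gene in the summed RPKM of its family (%) in the vehicle and the AS library, 1 library each. The FOS and JUN families have almost the same make-up in both, with Fosl1 at 80.3% and 80.1%, whereas Dusp4 takes 57.5% of the ERK-directed phosphatases with the vehicle and 68.6% with AS.

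The other genes of the pathway are given from lists chosen by role. Of the 10 other MAP kinase phosphatase genes 9 were measured, with a median log2 fold change of -0.25. Of these, 6 were lower with AS and 3 higher. Dusp8, at 0.360 RPKM in the vehicle, was beyond 1.5-fold with 0.1 RPKM added (-0.61), but its value was -0.84 with nothing added and -0.18 with 1 RPKM added. Dusp10 was just inside 1.5-fold (-0.57) and beyond it with nothing added (-0.60) and with TMM scaling (-0.64). Dusp8 and Dusp10 were named after their values were seen. Dusp1, an early stress-induced phosphatase gene, was at 0.410 RPKM with AS and 0.505 RPKM with the vehicle (log2 fold change of -0.25). The 14 other ERK inhibitor genes measured, such as Spry1, the Spred genes and Nf1, had a median of 0.21, with 11 higher, 3 lower and 0 beyond 1.5-fold. The 3 lower were Spred3 (-0.28), Errfi1 (-0.18) and Pebp1 (-0.11). Over all genes 60.9% were higher, and 50.1% with TMM scaling.

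The 6 other AP-1 and related subunit genes measured split into 3 higher and 3 lower. ATF genes were not in this list or in that of the immediate-early genes below. Atf3, named after its value was seen, had a log2 fold change of 1.08. Jdp2, which encodes a bZIP protein that binds JUN and represses AP-1, was the only one of the 6 beyond 1.5-fold, apart from Fosb with nothing added. It had 73.7 RPKM with AS against 42.8 RPKM with the vehicle, with a log2 fold change of 0.78, and its level was second to that of Jund among these genes. Of the 19 other immediate-early genes measured 10 were higher and 9 lower, with a median of 0.07. Klf4, a zinc finger factor gene, was the only one beyond 1.5-fold, apart from Ier3, named after its value was seen, with TMM scaling (-0.62, against -0.55 without it). Its level was 1.85 RPKM with AS and 0.787 RPKM with the vehicle. The log2 fold change of 1.14 was also beyond 1, but became 0.68 with 1 RPKM added. Egr2 was not matched among the genes, so its level was not analysed here.

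The 11 other output genes of ERK, such as Ccnd1, Phlda1 and Mafg, had a median of -0.00019, with 5 higher, 6 lower and 0 beyond 1.5-fold. Their values ran from -0.40 for Ccnd1 to 0.49 for Mafg. Of the 31 genes of the RAS-RAF-MEK-ERK core, from the receptors to the ETS factors, 21 were higher and 10 lower with a median of 0.14, and 17 and 14 with TMM scaling. Rps6ka2, which encodes a kinase activated by ERK, was the only one beyond 1.5-fold, at 2.95 RPKM with AS and 1.57 RPKM with the vehicle and a log2 fold change of 0.86. Of the 6 EGFR ligand genes measured 4 were higher and 2 lower. Btc, the gene of betacellulin, was the only one beyond 1.5-fold, at 1.53 and 0.810 RPKM. Its log2 fold change was 0.84, and 0.48 with 1 RPKM added.

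**Figure D5:**
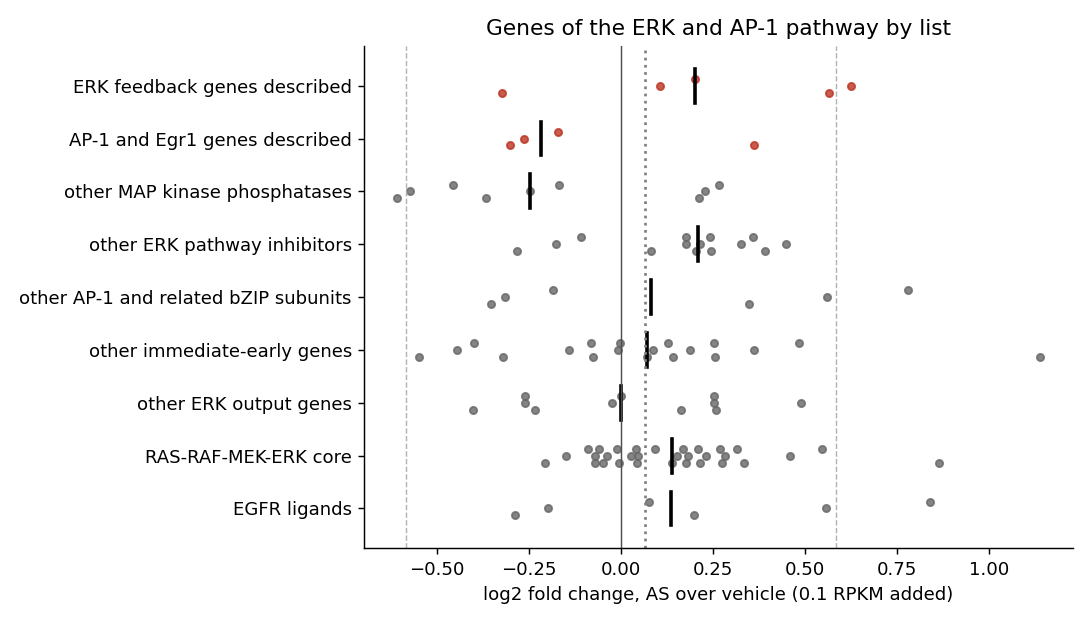
Log2 fold change of AS over vehicle (0.1 RPKM added) of each gene, as points, by list, with the median of each list as a black bar, the median of all genes (0.07) as a dotted line and 1.5-fold in either direction as dashed lines. The medians run from -0.25 for the other MAP kinase phosphatases to 0.21 for the other ERK pathway inhibitors, and the 9 members are in red.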

How the data were processed

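Total RNA of 4T1 cells was sequenced from a stranded mRNA library, 1 per condition. The authors deposited 1 table of RPKM per gene for both libraries. The submitters' processing notes name fastp 0.23.4, STAR 2.5.3a and featureCounts, and GRCh38, a human build. The gene annotation, the filter on low genes and the strand setting are not given in the sources used here. The table also holds the authors' log2 fold change, mean log2 CPM, p-value and FDR, which were not used. The methods name DESeq2 for the authors' test.

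RPKM times the summed exon length in GENCODE M21 gave whole reads (within 0.02 reads) for 12718 of 13502 genes with a single entry there, at the smallest depths that allowed it. The lowest mean of these was 31 reads, and 0 genes of the table were at 0. The routine was checked on data simulated with the same exon lengths. Such a check cannot show which annotation or depths the authors used. Each fold change has a 95% Clopper-Pearson interval from its reads, with nothing added, and levels have exact Poisson intervals. Reads without molecular identifiers are not independent molecules. No test was run. The thresholds, 2-fold (a log2 fold change of 1) and 1.5-fold, are taken from the methods of the study. There the first is joined to an FDR cut and the second to a p-value cut. Here they were used alone, so the counts are not those of the study's rules.

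The members and lists were chosen with earlier results of these data known. Named were all members, up to 4 genes per other list beyond 1.5-fold with a mean of at least 1 RPKM, and the paralogs Dusp1, Spry1, Fosl2, Jund, Fosb and Egr2. Family sums, the level ratios and the motifs were chosen after the values were seen. Alternatives were 0 or 1 RPKM added, TMM (30% and 5% trimmed), median-of-ratios or upper-quartile scaling, and a minimum mean of 1 RPKM. Python 3.11.15 and scipy 1.17.1 were used.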

Additional observations from a re-analysis of the deposited data

How the results depend on the processing

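No member changed direction under any alternative run. Scaling by TMM, by the median of ratios or by the upper quartile lowered all values alike, by 0.068, 0.069 and 0.055 before the added amount, and with each of them 0 members were beyond 1.5-fold. With nothing added 2 members were, Dusp4 and Spry4. The log2 fold change of Spry4 ranged from 0.19 with 1 RPKM added to 0.73 with nothing added. That of Dusp4 ranged from 0.56 to 0.63 and that of Junb from -0.37 to -0.30. Of 52 member values under the alternatives, 6 lay outside the interval of the reads, all of them of Dusp4, Spry4 or Junb. Over all genes, 161 were higher beyond a log2 fold change of 1 with nothing added and 38 with 1 RPKM added, against 94, and 16 were lower with 1 RPKM added, against 44. Beyond 1.5-fold, 189 were higher with 1 RPKM added and 336 with the minimum mean, against 505, and 130 were lower with 1 RPKM added, against 286. Fewer genes were counted under the minimum mean. The median of the other MAP kinase phosphatases was -0.12 with 1 RPKM added, and that of the EGFR ligands was 0.26 with nothing added. The median of the other AP-1 subunits turned to -0.18 with the minimum mean, which removed Fosb. The other 101 of 114 summary values moved by less than 0.1, or by at most 1.5 times for a count. Low reads limit Egr1 and Spry4 most. No paired analysis was possible because there was 1 library per condition.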
